A study of Mus musculus with 8 samples.

Results

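Nanos1, Nanos2, Nanos3, Pum2, Dnd1 and Cnot1 encode RNA regulators, some of which act together in germ cells. The transcripts of these 6 genes were followed in germ cells that had lost SNF5. All 6 genes were found by name in both expression tables, among 23694 named genes in females and 23409 in males, and each was listed in a single row per table. Germ cells were sorted from fetal ovaries and testes at E15.5 by the fluorescence of an Oct4-EGFP transgene, which every animal carried. RNA-Seq gave 8 libraries, with 2 for each combination of sex and genotype. The labels give the strain as C57BL/6, while the study's methods describe a mixed background. Snf5 CKO animals were Snf5fx/Δ with TNAP-Cre, a Cre that is expressed from the Alpl locus in primordial germ cells and recombines in a mosaic manner, so that some germ cells keep SNF5. Controls mixed cells without the Cre, Snf5fx/+ or Snf5fx/Δ, with Snf5fx/+ cells that carried TNAP-Cre, so a deleted allele or the Cre was present in some of them. Most libraries pooled several mice. For male Snf5 CKO the study's RNA-Seq entries name a single mouse each, with more than one entry for replicate 1.

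NANOS proteins are zinc finger proteins that bind target mRNAs and bring them to the CCR4-NOT complex, which shortens poly(A) tails and so leads to mRNA decay. NANOS3 is needed for the survival of primordial germ cells. NANOS2 is made in fetal male germ cells, where it binds CNOT1, the scaffold of CCR4-NOT, and keeps meiosis from starting. NANOS1 is known mainly from the nervous system and is dispensable for mouse fertility. Pumilio proteins such as PUM2 bind sequence elements in mRNAs and are classical partners of NANOS. DND1 binds mRNAs with U-rich sites, works with NANOS2 and is needed for germ cell survival. SNF5, the product of Smarcb1, belongs to the core of SWI/SNF complexes, which remodel chromatin.

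The upstream sequences of the Nanos genes are shown because these related genes have unlike promoters. RefSeq sequences of GRCm38.p6 were searched for 4 of the 6 genes, and not for Dnd1 and Cnot1. The search took the 250 bases before each start, on both strands. It looked for TATAAA, the core of the TATA box, CCAAT, known as the CCAAT box, and GGGCGG, the core of the GC box. CACGTG, an E-box, and TTCCCGC, the core of the E2F motif, were searched too. Matches are in capitals. The Nanos1 stretch is chr19:60755737-60755986 on the + strand, and the Nanos3 stretch is chr8:84176553-84176802 on the − strand. The Nanos2 start in GENCODE lies 124 bases before that in RefSeq, so Nanos2 is shown up to the GENCODE start, chr7:18987274-18987399, and over 30 bases around its TATA box, chr7:18987479-18987508, both on the + strand. For Nanos3, GENCODE has transcripts that start where RefSeq does and one that starts 8665 bases further upstream, and the gene models of both tables reach past the RefSeq start, so the Nanos3 stretch lies inside those models.
Nanos1: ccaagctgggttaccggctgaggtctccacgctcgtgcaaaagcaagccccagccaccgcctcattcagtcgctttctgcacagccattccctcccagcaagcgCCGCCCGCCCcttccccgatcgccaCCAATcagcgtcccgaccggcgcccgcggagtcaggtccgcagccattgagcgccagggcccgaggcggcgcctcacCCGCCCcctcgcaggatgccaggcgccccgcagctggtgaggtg
Nanos2, up to the GENCODE start: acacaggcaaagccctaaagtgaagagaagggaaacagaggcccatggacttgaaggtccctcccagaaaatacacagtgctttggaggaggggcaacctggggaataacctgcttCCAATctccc
Nanos2, around the TATA box: tctaggagagtaTTTATAagggggtgtgcc
Nanos3: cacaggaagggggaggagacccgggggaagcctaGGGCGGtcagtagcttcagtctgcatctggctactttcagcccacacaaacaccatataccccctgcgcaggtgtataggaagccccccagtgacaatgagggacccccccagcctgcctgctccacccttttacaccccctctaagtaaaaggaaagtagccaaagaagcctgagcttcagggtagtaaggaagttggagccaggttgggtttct
The Nanos1 window held 25 CpG dinucleotides and 70.4% G or C, the Nanos3 window 3 and 56.4%, and the Nanos2 window 0 and 50.8%. Over the promoters of 27025 genes the median was 6 CpG dinucleotides and 52% G or C, and 89.7% of promoters had fewer CpG dinucleotides than Nanos1. The 3 listed starts of Pum2 had between 30 and 36. The letters of the TATA box were found for Nanos2 only, 33 bases before the RefSeq start and on the strand opposite to transcription, and 13.0% of all promoters held them on either strand. CCAAT boxes were found for Nanos1, 121 bases before the start, and for Nanos2, 134 and, on the opposite strand, 118 bases before the RefSeq start, against 34.5% of all promoters. GC boxes were found for Nanos1 (3 matches on the opposite strand, the first pair overlapping) and Nanos3 (1 match), against 32.9% of all promoters. Pum2 had GC boxes too, 42 bases before a listed start and 108 and 87 bases before another. CACGTG and TTCCCGC, held by 6.05% and 3.84% of promoters, had no match in the windows of the Nanos genes. TTCCCGC matched 106 bases before a Pum2 start, on the opposite strand. These matches describe letters, not sites of binding.

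Smarcb1 was read first as a check of the labels. It was at 23.4 and 22.3 FPKM in female controls and 4.24 and 2.47 in female Snf5 CKO. Male controls had 141 and 167 FPKM of it, against 8.73 and 10.1 under Snf5 CKO. Its log2 fold change was −2.48 in females and −3.90 in males. FPKM is the number of fragments scaled to transcript length and library size, and fold changes below are differences of log2(FPKM + 1) between Snf5 CKO and control, from limma fitted to all tested genes of a sex. A gene was called changed at a Benjamini-Hochberg adjusted p under 0.05 and a log2 fold change of at least 1 in either direction. Summed over all loci a library held between 673741 and 1554760 FPKM, and since the tables hold no counts the total depth is unknown. In sorted cells in bulk, fewer cells of a type and less RNA per cell cannot be told apart. The 6 germ cell markers (Ddx4, Dazl, Mael, Dppa3, Pou5f1, Tdrd1) summed to 1867 and 1903 FPKM in female controls and to 2787 and 2941 in female Snf5 CKO. In male libraries they summed to between 4307 and 4806 FPKM. Single markers moved in opposite directions, so the sums do not measure germ cell content. In Snf5 CKO, Mael and Tdrd1, genes of the piRNA pathway, were lower in females (log2 fold changes −1.94 and −1.89) and males (−2.97 and −3.91). Dppa3, a gene of early germ cells, and Pou5f1 were higher in females (4.89 and 4.59). Ddx4 and Dazl had log2 fold changes of −0.54 and −0.39 in females and were called in neither sex. In males Ddx4 was at 565 and 458 FPKM in controls and at 300 and 237 in Snf5 CKO. Its male log2 fold change was −0.93 (limma adjusted p = 0.0361), which passed the test and fell short of the size for a call. Dazl in males had a log2 fold change of 0.45 (limma adjusted p = 0.26). Replicates are biological duplicates, and 2 against 2 libraries cannot give an exact permutation p under 0.333.

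In female Snf5 CKO germ cells Dnd1 and Nanos3 were higher than in controls, and in male Snf5 CKO germ cells Nanos2, Nanos3 and Dnd1 were lower. Of the 5 genes tested in females 2 were called higher and 0 lower, against 38.9% of 11529 tested genes called changed (17.3% higher and 21.6% lower). Of the 6 tested in males 3 were called lower and 0 higher, against 31.8% of 12279 (14.4% higher and 17.4% lower). At an unadjusted p under 0.05 in limma they were 2 in females and 5 in males, against 66.1% and 54.8% of all tested genes. Neither Pum2 nor Cnot1 nor Nanos1 was called in either sex. The ranges of control and Snf5 CKO did not overlap for 5 of the 6 genes in each sex, against 81.6% of tested genes in females and 74.5% in males. The female 5 include Nanos2, which lay under the filter and was not tested. The median log2 fold change over all tested genes was −0.13 in females and −0.07 in males. The shares called are thus to be read against tables in which a large part of all genes was called.

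**Figure D1:**
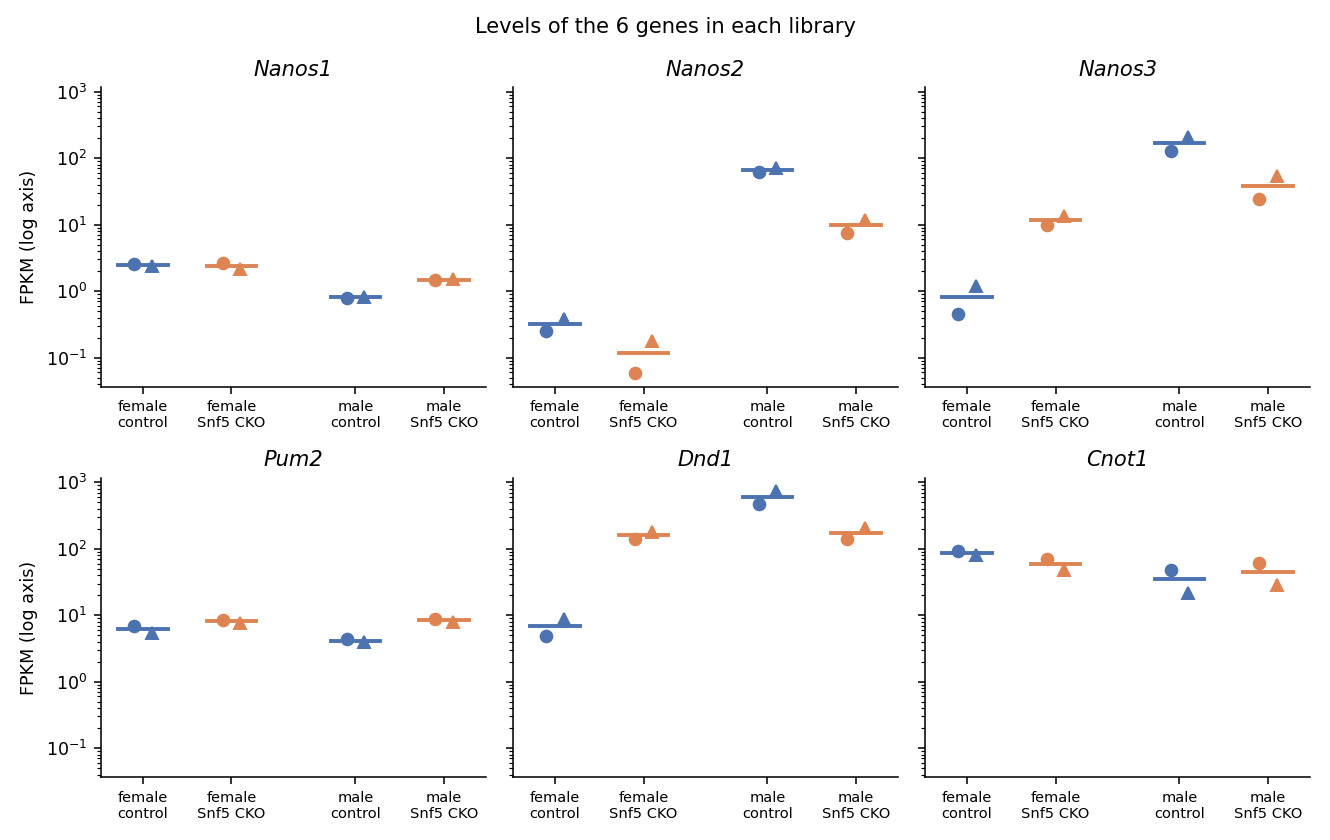
FPKM on a log axis in each of the 8 libraries for the 6 genes, with replicate 1 as a circle, replicate 2 as a triangle and the mean of each group of 2 as a line. Dnd1 stood between 141 and 179 FPKM in female and between 140 and 204 in male Snf5 CKO, from 4.94 to 8.81 in female and 469 to 729 in male controls.

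Nanos2 (chr7:18987524-18988962, mm10) was a male transcript at this stage. It was at 61.2 and 71.9 FPKM in male controls (mean 66.6 ± 7.59, SD, n = 2) and at 7.57 and 11.9 in male Snf5 CKO (mean 9.74 ± 3.06, SD, n = 2). Both Snf5 CKO libraries lay far under both controls, and the mean was 6.84-fold lower. The log2 fold change was −2.68 (SE 0.25, limma adjusted p = 0.0026), and 1.51% of tested genes in males had a larger fall. In females Nanos2 was at 0.255 and 0.379 FPKM in controls and 0.0585 and 0.178 in Snf5 CKO. The female values lay under the filter of a mean of 1 FPKM and were not tested. An antisense gene, Gm45058, overlaps 766 bases of Nanos2, and the libraries were made with a kit that does not mark strand, so reads of the pair cannot be told apart.

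Nanos3 (chr8, from 84173050 to 84176870 in the female and from 84173720 to 84184084 in the male table) differed in opposite directions in the sexes. In females it was at 0.447 and 1.20 FPKM in controls and at 9.86 and 13.6 in Snf5 CKO, a mean of 0.822 ± 0.530 against 11.7 ± 2.64 (SD, n = 2). Both female Snf5 CKO libraries lay above both controls, with a 14.3-fold higher mean and a log2 fold change of 2.82 (SE 0.27, limma adjusted p = 0.000273), or 3.79 with a pseudocount of 0.1 FPKM. In males it was at 130 and 205 FPKM in controls and at 24.0 and 53.5 in Snf5 CKO, a mean of 168 ± 53.1 against 38.8 ± 20.8 (SD, n = 2). The male Snf5 CKO libraries both lay under the controls, with a 4.33-fold lower mean and a log2 fold change of −2.16 (SE 0.44, limma adjusted p = 0.0149). The 2 tables bound the gene differently, so its FPKM in the sexes rests on different gene models.

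Dnd1 (listed at chr18:36760239-36766214) was the most abundant of the 6 genes in male germ cells and in female Snf5 CKO germ cells. In females it was at 4.94 and 8.81 FPKM in controls and at 141 and 179 in Snf5 CKO, a mean of 6.88 ± 2.73 against 160 ± 26.5 (SD, n = 2). The mean of the female Snf5 CKO libraries was 23.3-fold higher, with a log2 fold change of 4.39 (SE 0.27, limma adjusted p = 9.88e-05), and 0.191% of tested genes had a larger rise. In males Dnd1 was at 469 and 729 FPKM in controls and at 140 and 204 in Snf5 CKO, a mean of 599 ± 184 against 172 ± 45.0 (SD, n = 2). No male Snf5 CKO library reached the lower control. The mean was 3.48-fold lower, with a log2 fold change of −1.78 (SE 0.33, limma adjusted p = 0.0117), and 5.92% of tested genes in males had a larger fall.

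The ends of Dnd1 and Wdr55, which run towards each other on opposite strands, overlap by 140 bases in the GENCODE annotation, and the tables give both genes one locus. Wdr55 was at 3.93 and 6.22 FPKM in female controls and at 29.3 and 26.5 in female Snf5 CKO, with a log2 fold change of 2.28 (limma adjusted p = 0.000322). It was at 32.1 and 35.6 FPKM in male controls and at 40.9 and 39.4 in male Snf5 CKO, with a log2 fold change of 0.24 (limma adjusted p = 0.278). Wdr55 thus rose in females and was not called in males. The ratio of Dnd1 to Wdr55 was 1.26 and 1.42 in female controls and 4.82 and 6.73 in female Snf5 CKO, and 14.6 and 20.5 in male controls against 3.43 and 5.18 in male Snf5 CKO. How reads of the overlap were shared between the genes was not tested.

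Nanos1 (chr19:60755987-60759914), the family member without a known need in germ cells, was low throughout. In females it was at 2.59 and 2.36 FPKM in controls and at 2.62 and 2.17 in Snf5 CKO. The female groups overlapped, and the log2 fold change was −0.04 (SE 0.19, limma adjusted p = 0.883). In males it was at 0.795 and 0.829 FPKM in controls and at 1.47 and 1.505 in Snf5 CKO, so the male groups did not overlap. The mean was 1.83-fold higher, with a log2 fold change of 0.46 (SE 0.16, limma adjusted p = 0.0654), and 29.97% of tested genes in males had a larger rise. With replicate number as a block the adjusted p was 0.0411, with the size still under the threshold for a call.

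The makeup of the Nanos family differed between sexes and genotypes. Nanos1 held 78.7% and 59.95% of the summed Nanos FPKM in female controls, where the sum was only 3.30 and 3.93 FPKM, and Nanos3 held 13.6% and 30.4%. In female Snf5 CKO Nanos3 held 78.6% and 85.3% of 12.5 and 15.9 FPKM. Male controls had 192 and 278 FPKM in sum, of which Nanos3 held 67.8% and 73.8% and Nanos2 31.8% and 25.9%. In male Snf5 CKO the sum was 33.1 and 66.9 FPKM, of which Nanos3 held 72.7% and 80.0% and Nanos2 22.9% and 17.8%. The leading gene was thus Nanos1 in female controls and Nanos3 in the other 3 groups. These shares were not tested.

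**Figure D2:**
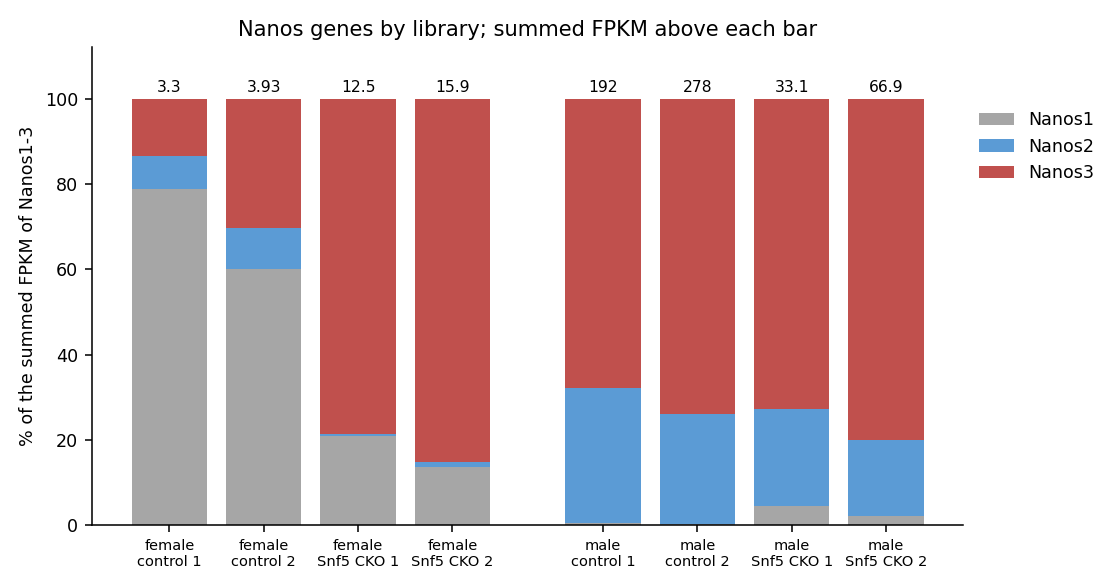
Share in percent of the summed FPKM of Nanos1, Nanos2 and Nanos3 held by each gene in each of the 8 libraries, with the sum in FPKM above each bar. Nanos1 held most of the low sum in female controls, and Nanos3 held between 67.8% and 85.3% in all other libraries.

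Pum2 (chr12:8674134-8752583 in the male table, from 8673199 in the female) was expressed in every group between 3.94 and 8.84 FPKM. In males it was at 4.36 and 3.94 FPKM in controls and at 8.84 and 7.996 in Snf5 CKO, without overlap. The mean was 2.03-fold higher, with a log2 fold change of 0.87 (SE 0.19, limma adjusted p = 0.0173), so it passed the test and fell short of the size set for a call. With 1 library left out the adjusted p lay between 0.0525 and 0.106, and with each library rescaled to a common sum it was 0.242. With a pseudocount of 0.1 FPKM, or with median-of-ratios rescaling, the log2 fold change was 1.004 and 1.008, and Pum2 was called. In females it was at 6.93 and 5.48 FPKM in controls and at 8.60 and 7.78 in Snf5 CKO. These groups did not overlap either, at a log2 fold change of 0.36 (SE 0.20, limma adjusted p = 0.158).

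Pum3, listed as D19Bwg1357e, encodes a distant relative of PUM2 in the nucleolus. It had log2 fold changes of −0.28 in females and 0.08 in males (limma adjusted p = 0.377 and 0.799) and was called in neither sex.

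Cnot1 (listed at chr8:95719451-95821728) carries the deadenylases of CCR4-NOT and binds NANOS2. In females it was at 94.1 and 79.4 FPKM in controls and at 71.3 and 48.6 in Snf5 CKO, without overlap. The log2 fold change was −0.55 (SE 0.23, limma adjusted p = 0.0760), and with replicate number as a block the adjusted p was 0.00349. In males it was at 47.5 and 21.7 FPKM in controls and at 61.5 and 28.1 in Snf5 CKO, and replicate 2 was far lower than replicate 1 in both groups. The male groups overlapped, at a log2 fold change of 0.36 (SE 0.51, limma adjusted p = 0.593). The male Snf5 CKO value was higher at each replicate number, and with the block the adjusted p was 0.00395. No fit gave Cnot1 a change of the size set for a call in either sex. The antisense gene 4930513N10Rik overlaps 721 bases at the start of Cnot1 and was at most 6.47 FPKM in any library. In GENCODE Cnot1 reaches to 95807464 and 4930513N10Rik to 95821728, so the listed locus spans both genes.

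**Figure D3:**
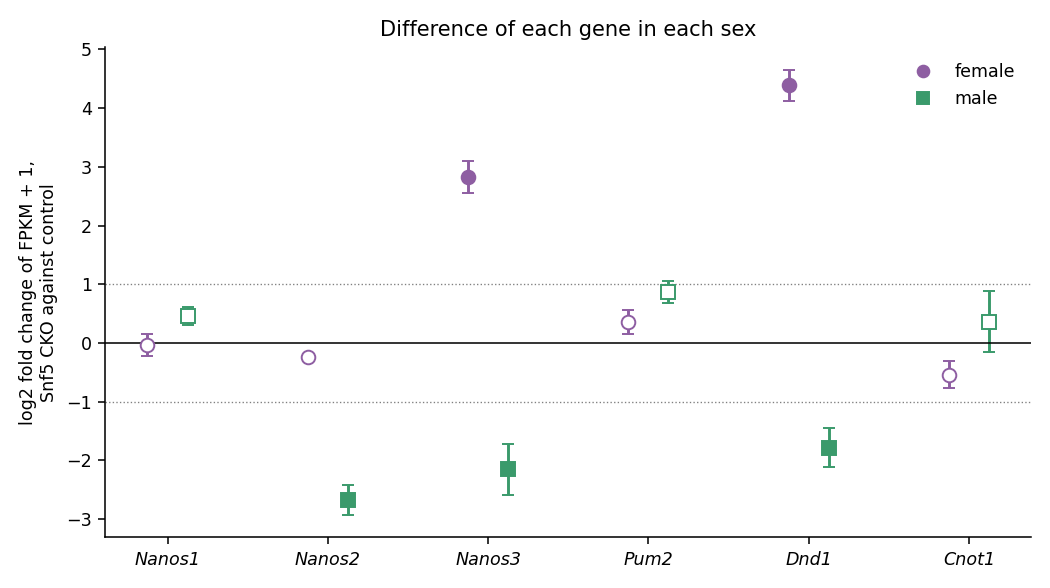
Log2 fold change of FPKM + 1 between Snf5 CKO and control for each gene in females (circles) and males (squares), with the standard error from limma. Filled symbols were called changed, dotted lines mark a log2 fold change of 1 in either direction, and Nanos2 in females was not tested and has no error bar. Nanos3 and Dnd1 are filled in both sexes, above 0 in females and below 0 in males.

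Levels of the genes were ordered within each group on the FPKM scale. In female controls Cnot1 was highest, Dnd1 and Pum2 overlapped, and Nanos1, Nanos3 and Nanos2 followed in this order without overlap. In female Snf5 CKO the order was Dnd1, Cnot1, Nanos3, Pum2, Nanos1 and Nanos2, with no overlap between neighbours. In male controls Dnd1 led, followed by Nanos3, Nanos2, Cnot1, Pum2 and Nanos1 without overlap. In male Snf5 CKO Dnd1 was again highest and Nanos1 lowest, while Cnot1 overlapped with Nanos3, and Nanos2 with Pum2. Dnd1, Nanos3 and Nanos2 changed places between groups, while Cnot1, Pum2 and Nanos1 kept their order relative to each other.

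Set side by side across the tables, which were normalized separately, the mean control level in males was 210-fold that in females for Nanos2, 204-fold for Nanos3 and 87.1-fold for Dnd1. In Snf5 CKO the same ratios were 82.4 for Nanos2, 3.31 for Nanos3 and 1.08 for Dnd1. The female means of Nanos2 were 0.317 FPKM in controls and 0.118 in Snf5 CKO, and that of Nanos3 in controls was 0.822. These lay under the 1 FPKM of the filter, so the ratios built on them are rough. The gene models of Nanos3 also differed between the tables. For Dnd1 the ranges of the Snf5 CKO groups overlapped between the sexes. Cnot1, Pum2 and Nanos1 had lower means in male than in female controls, at 0.398, 0.669 and 0.328 of the female mean. The difference between the sexes, and the difference between their responses, were not tested.

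CCR4-NOT genes were looked at next, since NANOS proteins act through this complex. Of the 11 genes, all of them tested, 1 was called lower in females and 2 in males, and 0 were called higher, which is 9.09% and 18.2% of them against 38.9% and 31.8% of all tested genes. Cnot6l, a deadenylase subunit, fell in females, from 9.39 and 7.75 FPKM to 3.76 and 3.67 (log2 fold change −1.02, limma adjusted p = 0.00386). Cnot11 and Cnot3, structural subunits, fell in males. Cnot11 was at 66.8 and 72.7 FPKM in male controls and at 34.3 and 31.5 in male Snf5 CKO (log2 fold change −1.06, limma adjusted p = 0.00721). Cnot3, listed with Mir3572, was at 80.8 and 59.2 FPKM in male controls and at 36.2 and 30.1 in male Snf5 CKO (log2 fold change −1.05, limma adjusted p = 0.0175). These 3 genes lay close to the size threshold, and with median-of-ratios rescaling 0 CCR4-NOT genes were called in either sex. Without control replicate 1 the female count was 0 and the male count 1, and without Snf5 CKO replicate 2 the male count was 1.

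At an adjusted p under 0.05 and any size, 2 CCR4-NOT genes were lower and 0 higher in females, and 4 were lower and 1 higher in males, against 61.6% and 46.3% of all tested genes in both directions. Beside the genes called, these were Cnot4 in females (log2 fold change −0.78, limma adjusted p = 0.0145) and, in males, Cnot2 (−0.86, adjusted p = 0.0467), Cnot10 (−0.72, adjusted p = 0.0473) and Cnot7, a deadenylase, which was higher (0.61, adjusted p = 0.0342). Cnot8, the deadenylase related to Cnot7, had log2 fold changes of −0.40 in females and 0.03 in males, Cnot6 of −0.01 and 0.06, and Cnot9, listed as Rqcd1, of −0.23 and −0.24, none past the test. Each of Cnot2, Cnot7 and Cnot10 in males missed an adjusted p of 0.05 whichever library was left out, with values from 0.0524 to 0.238, and Cnot4 in females missed it without control replicate 1 (0.0575) and without Snf5 CKO replicate 2 (0.0987). The median of the 11 genes was −0.35 in females and −0.29 in males, beside −0.13 and −0.07 over all tested genes. All 11 genes were expressed in every library, between 1.82 and 193 FPKM.

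**Figure D4:**
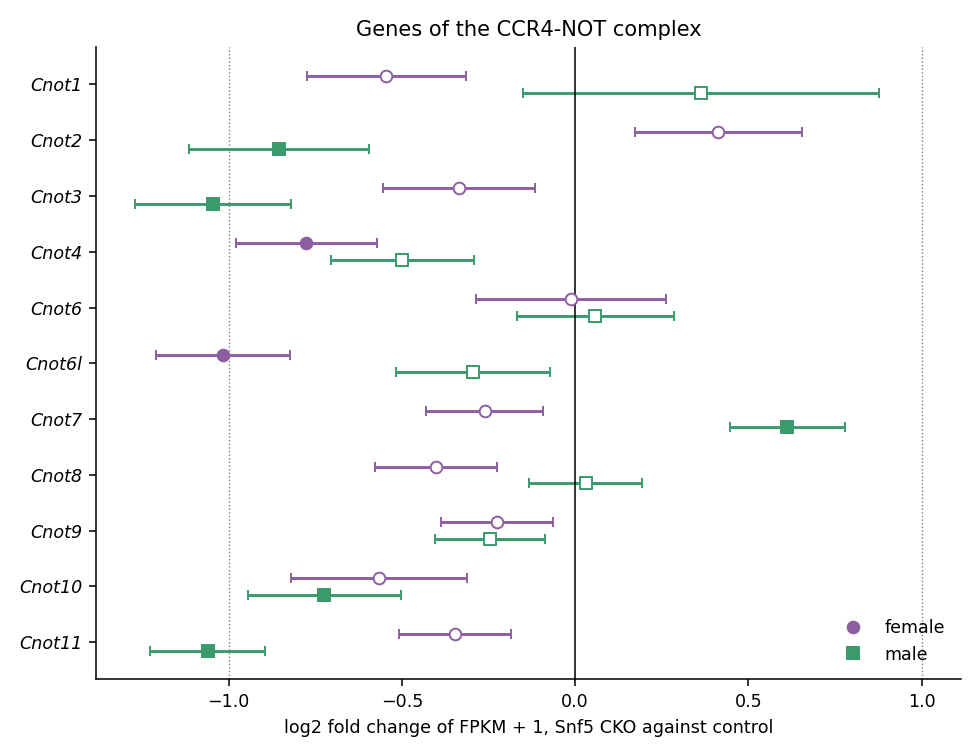
Log2 fold change of FPKM + 1 between Snf5 CKO and control, with the standard error from limma, for the 11 CCR4-NOT genes in females (circles) and males (squares). Filled symbols passed an adjusted p of 0.05 and dotted lines mark a log2 fold change of 1 in either direction. Most CCR4-NOT genes lie between the dotted lines in both sexes.

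Among other genes that act on mRNA decay the shares called were under those of all tested genes (38.9% in females and 31.8% in males). Of 8 tested genes for other deadenylases and their recruiters, 1 was lower and 1 higher in females, and 2 were higher in males, 25% in each sex. Tob1, which links mRNAs to CCR4-NOT, fell in females (50.5 and 33.6 to 18.1 and 19.2 FPKM, log2 fold change −1.10) and rose in males (8.29 and 8.81 to 18.6 and 19.3 FPKM, log2 fold change 1.07). Btg2, a relative of Tob1, rose in females (log2 fold change 1.40), and Parn, a poly(A) nuclease, rose in males (log2 fold change 1.18). Their adjusted p in limma lay between 0.00143 and 0.0178. Of the 16 genes for decapping and processing bodies, all tested, 3 were lower and 1 higher in each sex, again 25%, with a median of −0.56 in females and −0.42 in males. Ago2, which binds small RNAs, rose in females (0.890 and 0.704 to 5.45 and 4.48 FPKM, log2 fold change 1.73) and in males (1.82 and 1.19 to 8.94 and 5.03 FPKM, log2 fold change 1.64). Lower were Lsm14b, Eif4enif1 and Tnrc6c in females (log2 fold changes −1.21, −1.20 and −1.06) and Edc4, Edc3 and Tnrc6b in males (−1.52, −1.42 and −1.09). Several of these calls ended when 1 library was left out. In females the size fell short for Tob1 (−0.81), Lsm14b (−0.88) and Eif4enif1 (−0.99) without control replicate 1, and for Lsm14b (−0.93) and Eif4enif1 (−0.97) without Snf5 CKO replicate 2. In males the calls of Tob1 and Tnrc6b ended without control replicate 1, and that of Tnrc6b also without Snf5 CKO replicate 2. The call of Parn ended without control replicate 2 and without Snf5 CKO replicate 1. With 1 library left out, male log2 fold changes ran from 1.03 to 1.11 for Tob1, 0.95 to 1.42 for Parn and −1.37 to −0.81 for Tnrc6b. Median-of-ratios rescaling ended the calls of Tob1 and Tnrc6c in females and of Tnrc6b in males, and a common sum those of Tob1 and Parn in males.

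Among 14 other RNA-binding proteins of germ cells, all tested, 4 were higher and 2 lower in females, and 2 higher and 1 lower in males, which is 42.9% and 21.4% against 38.9% and 31.8% of all tested genes. Lin28a, an inhibitor of let-7 microRNAs that marks early germ cells, was at 4.45 and 4.82 FPKM in female controls and at 59.3 and 45.7 in female Snf5 CKO (log2 fold change 3.24, limma adjusted p = 9.85e-05). Rbpms rose in both sexes, by log2 fold changes of 2.71 in females and 1.37 in males, and so did Igf2bp1, by 1.92 and 1.01. The male call of Igf2bp1 ended without control replicate 1, control replicate 2 or Snf5 CKO replicate 1 (limma adjusted p from 0.0593 to 0.0997) and with a common sum (0.188). Igf2bp3 rose in females (1.03). Ybx2 and Cpeb1, regulators of stored mRNAs in oocytes, fell in females, at log2 fold changes of −1.79 and −1.20, and Lin28b fell in males, at −1.42. The median of the list was −0.16 in females and 0.38 in males.

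Transcripts that are described as targets of NANOS2 and DND1 were read beside them. Of 5 NANOS2 targets, all tested, 2 were lower and 0 higher in males, which is 40% against 31.8% of all tested genes called. Sycp3, a protein of the meiotic chromosome axis, was at 189 and 263 FPKM in male controls and at 33.0 and 46.0 in male Snf5 CKO (log2 fold change −2.49, limma adjusted p = 0.00304), and Taf7l, a germ cell subunit of TFIID, was at 57.2 and 50.8 and at 12.8 and 14.5 FPKM (log2 fold change −1.91, limma adjusted p = 0.0025). Stra8, which starts meiosis, was at 2.396 and 3.66 FPKM in male controls and at 3.30 and 9.83 in male Snf5 CKO, and these groups overlapped (log2 fold change 0.78, limma adjusted p = 0.234). In females, where Nanos2 was under 0.4 FPKM, Prdm9, Sycp3 and Taf7l were lower (log2 fold changes −3.99, −3.58 and −2.99), while Stra8 lay between 225 and 393 FPKM in all 4 libraries. The list's median was −0.31 in males and −2.99 in females.

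Of the 2 targets of DND1, Cdkn1b and Lats2, which restrain the cell cycle and growth, both were higher in females. In that sex 17.3% of all tested genes were called higher and 38.9% were called changed. Cdkn1b was at 0.397 and 0.726 FPKM in female controls and at 3.17 and 2.90 in female Snf5 CKO (log2 fold change 1.38, limma adjusted p = 0.00131). Lats2 was at 5.25 and 4.38 FPKM and at 14.2 and 11.5 FPKM (log2 fold change 1.25, limma adjusted p = 0.00194). In males neither was called, at log2 fold changes of −0.02 for Cdkn1b and −0.60 for Lats2 (limma adjusted p = 0.964 and 0.0823). Both targets thus rose in the sex in which Dnd1 rose, and none passed the test in the sex in which Dnd1 fell. No test related the level of Dnd1 or Nanos2 to these transcripts.

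The genes whose profiles were nearest to each of the 6 were found by the distance between log2(FPKM + 1) values over the 8 libraries, after subtraction of the mean of each table, among the 10472 genes that averaged 1 FPKM or more in both tables. Nanos3 was nearest to 1700019A02Rik (distance 0.631), Dppa4 (0.912) and Gm10324 (1.07), against a median distance of 4.004. Dnd1 was nearest to Grhl3 (0.965), Dppa4 (1.42) and Glt1d1 (1.48), against a median of 5.03. Dppa4, a chromatin-associated gene of pluripotent and early germ cells, was thus near to both. Its log2 fold changes were 3.19 in females and −2.37 in males. Dnd1 itself took place 33 from Nanos3, at a distance of 1.67. Nanos2 was nearest to Tagln2 (0.279), Gxylt2 (0.350) and Slc9b1 (0.354), which had log2 fold changes between −2.81 and −2.44 in males. The members with smaller differences had many near neighbours: the first were Ttc9c, Mrpl19 and Fh1 for Nanos1, Lzic, Thumpd1 and Fubp3 for Pum2, and Baz1b, Igf2r and Ikbkap for Cnot1. This likeness is a description of 8 libraries. The neighbours were picked on these same values, so their shared directions follow from the choice.

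**Figure D5:**
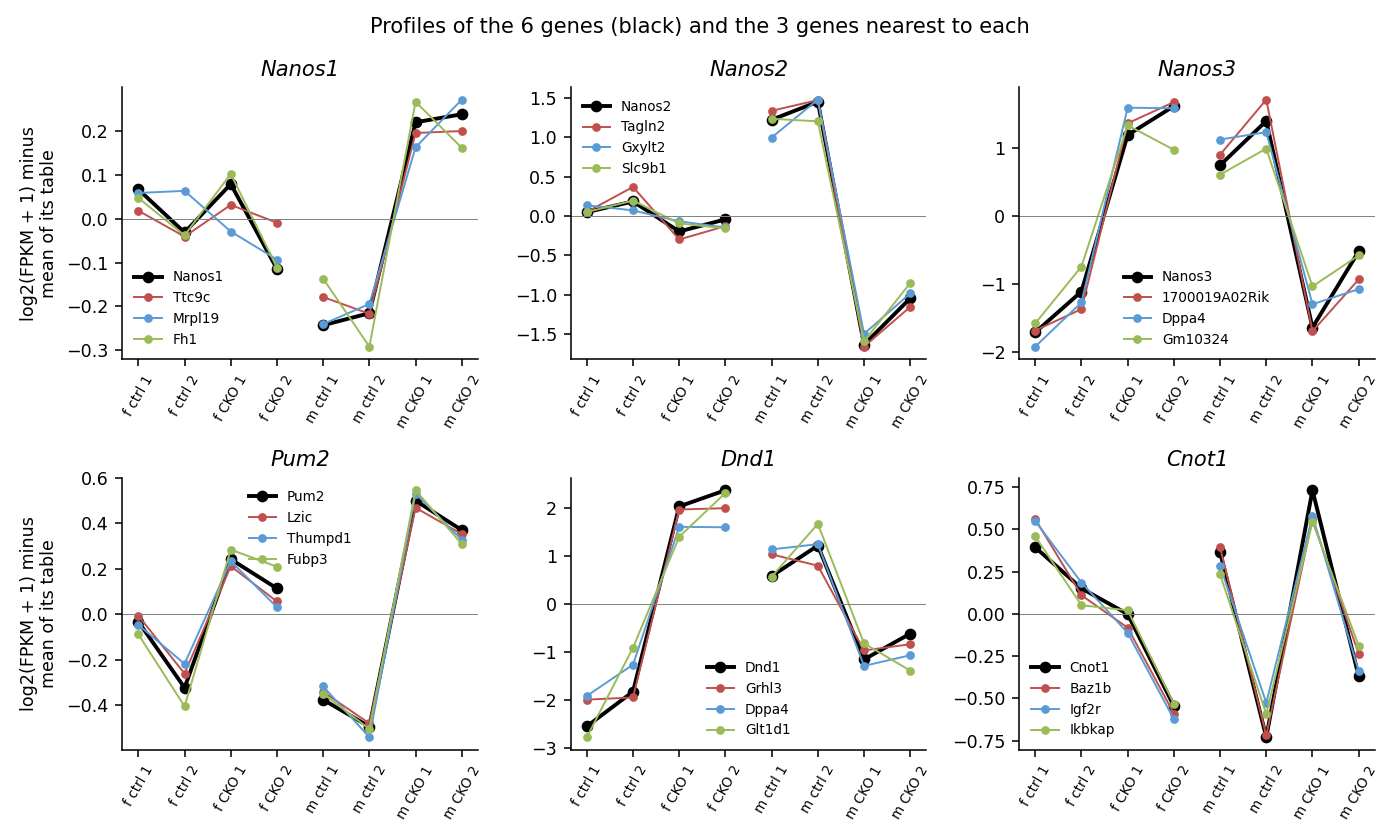
Log2(FPKM + 1) minus the mean over the 4 libraries of a table, for each of the 6 genes (black) and the 3 genes nearest to it (colours), over the 4 female (f) and 4 male (m) libraries. Lines only join points of one gene. Nanos3 and Dnd1 lie below 0 in female and above 0 in male controls and on the other side in Snf5 CKO. The genes nearest to them, which were picked on these values, do so too.

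Markers of other cells moved with genotype too. The 6 Sertoli cell markers summed to 69.8 and 61.5 FPKM in male controls and to 270 and 454 in male Snf5 CKO. All 6 were tested and called higher, Ptgds (log2 fold change 2.45), Amh (2.37), Dhh (2.15), Gata4 (1.81), Sox9 (1.71) and Cldn11 (1.21). Of all tested genes in males 14.4% were called higher and 17.4% lower. The 5 Leydig cell markers summed to 85.7 and 58.2 and to 19.2 and 15.1 FPKM in males, with 3 of the 5 tested called lower. In females the 6 markers of pre-granulosa and supporting cells summed to 5.96 and 9.44 FPKM in controls and to 25.1 and 24.1 in Snf5 CKO. Of these 6, all tested, 3 were called higher, against 17.3% of all tested genes in females. The Sertoli markers summed to at most 5.82 FPKM in females. The 5 stromal markers summed to 14.2 and 6.99 and to 2.74 and 1.71 FPKM in males, with 2 of the 3 tested called lower. The 6 blood and endothelial markers summed to between 23.8 and 98.7 FPKM over all libraries. Among single markers, Pecam1, an adhesion protein of endothelial cells that germ cells also express, rose in females from 4.10 and 3.65 to 24.3 and 19.7 FPKM (log2 fold change 2.23, limma adjusted p = 0.0002). Insl3, listed with Jak3, was higher in females (1.18) and Col1a1 lower (−1.11), and Amhr2 and Wt1 were higher in males (2.54 and 1.62). None of these markers was at 0 in all libraries of a sex. Pou5f1, whose promoter drives the transgene of the sort, was at 8.63 and 16.7 FPKM in female controls and at 295 and 333 in female Snf5 CKO (log2 fold change 4.59), and at 399 and 436 and at 620 and 648 FPKM in males (log2 fold change 0.60, limma adjusted p = 0.0945). The part of these cells, and of the sort, in the differences of Nanos2, Nanos3 and Dnd1 was not tested.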

How the data were processed

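The deposited files are 2 tables of FPKM values, 1 for each sex, with 4 libraries each. The authors made cDNA with SMART-Seq and libraries with Nextera XT, and used Tophat to map the read pairs to mm10 and Cufflinks to quantify them. The submitters' notes name TopHat2 2.2.1 and Cuffdiff 2.1.1, and the normalization for library size is not given in the sources used here. The deposited confidence bounds (16 columns) were not used. Table starts are counted from 0, and 1 was added to those printed. A gene named in several rows was represented by the row with the highest mean FPKM, and loci without a gene name, with 5.46% to 42.1% of a library's FPKM, were left out.

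Separate fits for the sexes were made in limma 3.58.1 under R 4.3.3, from log2(FPKM + 1) through lmFit and eBayes with a trend, two-sided, with Benjamini-Hochberg adjustment over all named genes that averaged 1 FPKM or more. Moderation contributed 4.74 (females) and 3.05 (males) degrees of freedom. The script was tested on simulated data. The main fits held no term for replicate number. Only as an alternative was replicate number added as a block, as a possible shared batch. The male column names call the replicates experiments, and the raw files of replicate 1 and replicate 2 are named in different styles in both sexes. No source states that replicate number is a batch. The deviations of control and Snf5 CKO libraries of one number correlated across genes at 0.5001 (females) and 0.607 (males). Named were the 6 genes, Smarcb1, all CCR4-NOT genes, Pum3, up to 4 called genes per list and sex, and the 3 genes nearest to each of the 6. The 6 genes and all lists were chosen with earlier results of these data known. A gene that this rule also covers is not reported here. Gene bounds came from GENCODE vM21 and promoters from RefSeq (GRCm38.p6). Figures were drawn with matplotlib 3.10.9. Alternatives were the replicate block, each library left out, a pseudocount of 0.1, a minimum mean of 5 FPKM or none, rescaling to a common sum or by the median of ratios, eBayes without trend or without moderation, and only loci of status OK.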

Additional observations from a re-analysis of the deposited data

Results flagged for a closer look

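Nanos3 was higher in both female Snf5 CKO libraries than in both female controls, with a log2 fold change of 2.82, and lower in both male Snf5 CKO libraries than in both male controls, with a log2 fold change of −2.16. Dnd1 showed the same opposition, with a log2 fold change of 4.39 in females and −1.78 in males. These values drew attention because every library of one sex moved one way and every library of the other sex the opposite way. The difference between the responses of the sexes was not tested, as each sex was fitted alone.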

How the results depend on the processing

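The calls of Nanos3 and Dnd1 in females and of Nanos2, Nanos3 and Dnd1 in males kept their direction under every alternative run and their call under all but one. Without moderation of variances Nanos3 in females (log2 fold change 2.82, adjusted p = 0.0592) and Nanos2 (−2.68, 0.0692), Nanos3 (−2.16, 0.163) and Dnd1 (−1.78, 0.125) in males lost it and Dnd1 in females (adjusted p = 0.0462) kept it, as this fit leaves 2 degrees of freedom, and changed genes numbered 1925 in females and 648 in males, in place of 4484 and 3904. Pum2 in males gained the call at a pseudocount of 0.1 FPKM (1.004) and under median-of-ratios rescaling (1.008). That rescaling turned Nanos1 in females to 0.080 and left 0 changed CCR4-NOT genes in each sex, as did the lack of moderation. It moved the median of all tested genes from −0.13 to 0.02 in females and from −0.07 to 0.07 in males, and a common sum moved the male median to −0.26 and the share of higher genes among those changed in males from 45.2% to 33.8%. Cnot6 turned to 0.0082 (common sum) and 0.14 (median of ratios) in females, and under the common sum Cnot6 (−0.11), Cnot8 (−0.15) and Pum3 (−0.10) turned in males. With 1 library left out, log2 fold changes ran from 2.52 to 3.12 for Nanos3 and from 4.03 to 4.75 for Dnd1 in females, and from −2.97 to −2.38 for Nanos2, −2.72 to −1.60 for Nanos3 and −2.10 to −1.47 for Dnd1 in males. They crossed 0 for Nanos1 in females (−0.13 to 0.061), Cnot1 in males (−0.19 to 0.91), Cnot6 (−0.35 to 0.33 in females, −0.17 to 0.29 in males), Cnot8 in males (−0.028 to 0.089) and Pum3 (−0.58 to 0.0084 in females, −0.14 to 0.31 in males). Changed genes then numbered 4270 to 4826 in females and 3611 to 4133 in males, and those of CCR4-NOT 0 to 1 and 1 to 2. With the replicate block, 4509 genes were changed in females and 4066 in males, and beside the adjusted p of Cnot1 in both sexes and Nanos1 in males it moved none of the 6 genes across a threshold. Without a filter Nanos2 in females had an adjusted p of 0.0782. Among the other named genes, their fits under the alternatives lost a call in 47 cases, gained 1, turned direction in 12 and kept both in 610. The cause of these shifts was not tested. The total depth is unknown, so no detection limit was set for low values such as those of Nanos2 in females.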
